A study of Homo sapiens with 4 samples.

Results

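Kinesins and dyneins are the motor proteins that carry cargo along microtubules, and the splicing of their genes was described here in 293T (HEK293T) cells, a human embryonic kidney line. The events were taken from a table of skipped exons by gene symbol: kinesin heavy chains (KIF followed by a digit or C), kinesin light chains (KLC), and the cytoplasmic dynein chains whose symbols start with DYNC or DYNL. A skipped exon event is a set of 3 exons of a gene whose middle exon is either included in the RNA or skipped. Of 54503 events with a mean of at least 20 junction reads over the 4 libraries, 239 belonged to these motor genes. They covered 206 exons in 44 genes. A further 25 motor events lay under that minimum, and DYNC1I1, KIF12, KIF21B, KIF27 and KIF6 had no event above it.

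Of the 4 libraries, 2 came from cells transfected with a gapmer antisense oligonucleotide (ASO) against SNORD89, a C/D box small nucleolar RNA, at 70 nM with Lipofectamine RNAiMAX, and 2 from cells whose treatment is given as none. The comparison asks which exons are spliced differently when SNORD89 is targeted. The labels of the untreated cells carry the same transfection text, so whether they received the lipid is not clear, and no control ASO is named. RNA was isolated 48 hours after transfection, with a change of medium at 24 hours. The libraries of a group are labelled biological replicates of this 1 cell line. The table holds the reads as a first and a second set of 2 libraries, and no header says which set is the ASO-treated one. Its title names SNORD89 before the cells without ASO, but every direction below is that of the first set against the second. Libraries are called library 1 and library 2 of a set by their place in the table, which pairs nothing between sets.

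Conventional kinesin (kinesin-1) is built of heavy chains with an ATP-driven motor head and light chains that bind cargo. Most kinesins walk towards the plus ends of microtubules, kinesin-13 members take microtubules apart instead of walking, and kinesin-14 members move towards the minus ends. Cytoplasmic dynein 1 moves cargo to the minus ends and is assembled from a heavy chain, intermediate, light intermediate and light chains. Dynein 2 works in cilia. Many kinesins are made mainly in dividing cells, where they build the spindle and complete cytokinesis.

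The skipped exons on which the results turn are shown first, from the messenger RNAs of GENCODE release 29. In each, the capitals are the skipped exon and the lower-case letters are the 10 bases of the exon on either side, written 5′ to 3′. The KLC1 exon of 131 nt has the most reads among the called events, and it is shown after its longer and after its shorter upstream exon, followed by the 67-nt exon next to it.
KLC1 131 nt, longer upstream exon: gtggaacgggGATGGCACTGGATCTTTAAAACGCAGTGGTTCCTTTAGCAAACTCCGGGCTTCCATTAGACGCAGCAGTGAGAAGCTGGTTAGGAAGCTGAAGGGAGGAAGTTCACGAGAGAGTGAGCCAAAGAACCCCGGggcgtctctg
KLC1 131 nt, shorter upstream exon: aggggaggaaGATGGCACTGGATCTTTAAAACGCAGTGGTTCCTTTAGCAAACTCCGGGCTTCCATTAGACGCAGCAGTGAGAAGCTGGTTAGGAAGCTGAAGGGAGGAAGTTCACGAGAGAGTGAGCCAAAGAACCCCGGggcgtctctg
KLC1 67 nt: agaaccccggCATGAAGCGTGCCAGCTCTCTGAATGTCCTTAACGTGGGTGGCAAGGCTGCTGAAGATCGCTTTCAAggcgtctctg
The 2 upstream exons differ by 27 bases at their 3′ end, which are the capitals in the next line, between the end of the shorter form and the start of the 131-nt exon.
KLC1 upstream extension: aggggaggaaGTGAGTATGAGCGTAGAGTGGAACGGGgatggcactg
The coding exons of KIF13A and KIF24 differed most between the sets among the called events.
KIF13A 39 nt: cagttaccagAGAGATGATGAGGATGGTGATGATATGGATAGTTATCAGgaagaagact
KIF24 98 nt: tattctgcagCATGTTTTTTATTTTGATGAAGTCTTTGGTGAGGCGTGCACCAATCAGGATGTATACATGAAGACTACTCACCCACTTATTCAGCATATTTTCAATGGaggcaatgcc
The 3 shortest alternative exons, and the 42-nt exon of KIF23 that hardly varied between libraries, are given for comparison.
KIF3A 9 nt: aaaagaagggATCAAGCAGgaaaaaagaa
KIF21A 21 nt: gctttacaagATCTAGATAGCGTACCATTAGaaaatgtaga
KIF1A 27 nt: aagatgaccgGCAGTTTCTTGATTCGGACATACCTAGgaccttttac
KIF23 42 nt: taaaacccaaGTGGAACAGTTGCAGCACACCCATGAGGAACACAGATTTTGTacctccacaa

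Most motor exons were spliced in nearly always. The inclusion level is the share of transcripts that hold the exon, from junction reads divided by the length over which each form can be counted, and runs from 0 to 1. Its mean over the 4 libraries was above 0.95 for 174 of the 239 motor events (72.8%), against 66.1% of all tested events, and under 0.05 for 13. The other motor events with reads in every library, 52 events over 41 exons in 20 genes, are called alternative below (21.8%, against 24.5% of all tested events). In 108 of the 239 events, 3 or more libraries had no skipping read. Kinesin heavy and light chain genes held 47 of the alternative events among 187 (25.1%), and dynein genes 5 among 52 (9.62%).

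In the authors' deposited table, 7 motor events over 6 exons passed the call rule used here, an FDR (the false discovery rate of the rMATS test) under 0.05 with a difference in inclusion level of at least 0.1. That is 2.93% of the motor events, and the same rule called 2.71% of all tested events. Inclusion was higher in the first set in 5 of them (1.34% of all tested events were called in that direction) and lower in 2 (background 1.37%). The higher ones lay in KIF13A, KLC1 (2 events of 1 exon), KIFC3 and DYNLL1, and the lower ones in KIF17 and KIF24. All 7 were alternative events, which makes 13.5% of the 52, against 11.1% of all alternative events. The motor genes were thus called about as often as genes in general.

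The authors' test was set beside 2 models whose error comes from the scatter among libraries, and neither called any of these events. In the quasi-binomial model that error follows a trend with depth over many events, so an event's own scatter does not enter its p. On simulated data limma found 0 of 200 changes of 0.3, so its count of 0 is no measure of change. The quasi-binomial model was tried only on changes of 0.3, larger than any called here, so its count does not speak against the calls. With a quasi-binomial model over all tested events, 0 motor events had a Benjamini-Hochberg adjusted p under 0.05 (2 of all tested events, 0.00367%, did), and the smallest adjusted p was 0.854. Its unadjusted p was under 0.05 for 7 motor events (2.93%, background 3.49%). With limma on log2 ratios (inclusion over skipping), 0 had an adjusted p under 0.05 (smallest 0.955) and 11 an unadjusted one (4.6%, background 4.87%). With 2 libraries against 2, an exact two-sided permutation test of a single event cannot give a p under 0.333. The labels do not say that replicates came from separate cultures, so the spread may be partly technical.

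**Figure D1:**
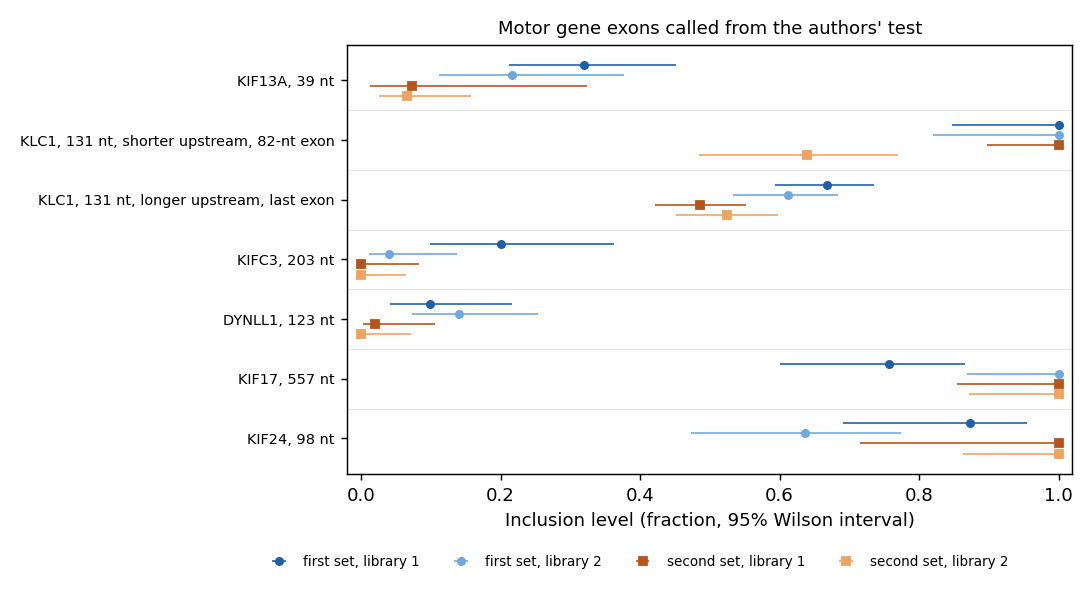
Inclusion level (x axis, fraction from 0 to 1) of the 7 called motor events in each library, with 95% Wilson intervals that cover counting error only. Circles are the first set and squares the second; the sets stand apart for 5 events, while for KIF17 and for KLC1 before the 82-nt exon a single library departs from the other 3.

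Between single libraries, the only gap between sets computed here lay between the gaps within the first and within the second set. Over the 52 alternative motor events, the median absolute difference between set means was 0.0544 (0.0548 over all alternative events). Each mean averages 2 libraries, so this value is not on the scale of the gaps between single libraries. The median gap between the 2 libraries of the first set was 0.0626 and that between those of the second 0.0872. Between library 1 of either set it was 0.0749. That pairing is arbitrary and leaves out library 2 of the second set. It therefore cannot decide whether gaps between sets exceed those within them. For all alternative events the gaps within sets were 0.0493 and 0.0876, and that between library 1 of either set was 0.0575. Library 2 of the second set lay farthest from the other libraries in 21 of the 52 events (40.4%, against 43.2% of all alternative events). Libraries 1 and 2 of the first set and library 1 of the second did so in 12, 7 and 12 (17.2%, 17.7% and 21.9% of all alternative events). The 95% intervals of all 4 libraries shared a common range in 28 of the 52 events (53.8%, against 55.3% of all alternative events).

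Over the motor events, each library had a median of 210 and 171 junction reads in the first set, against 138 and 135 in the second (222, 199, 157 and 171 over all tested events). Summed over the motor events, the reads were 96874 and 91869 in the first set, against 88118 and 89216 in the second. Summed over all tested events, the second set held more, with 42785278 and 43850869 against 38489757 and 38909115. Reads of the second set were weighted more to the 3′ ends of genes, a comparison added after the data had been seen. For each gene with 4 or more near-constitutive exons (mean inclusion above 0.95), the reads on the exon nearest the 5′ end were divided by those on the exon nearest the 3′ end. Over 21 motor genes the median log2 of this ratio was -0.10 and -0.58 in the first set, against -1.40 and -0.79 in the second; over 3261 genes it was -0.23, -0.39, -0.85 and -0.74. Both libraries of the second set lay below both of the first in 15 of the 21 motor genes (71.4%, against 61% of all such genes).

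The ratios were lowest in the dynein heavy chains. In DYNC1H1 the log2 ratio was -1.16 and -1.69 in the first set, against -3.82 and -3.44 in the second. In DYNC2H1 the exon nearest the 5′ end among tested events had 88 and 21 reads in the first set, against 3 and 7 in the second, whereas exon 85 of 90 had 353, 305, 311 and 286. By the mean over the libraries KIF14 followed, and then KIF7, KIF4A and KIF21A. The ratio was -0.67 and -0.70 against -2.88 and -3 for KIF14, and -0.81 and -1.36 against -2.39 and -1.58 for KIF7. Coverage along genes thus moves with the sets, and its part in the differences of inclusion was not tested.

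**Figure D2:**
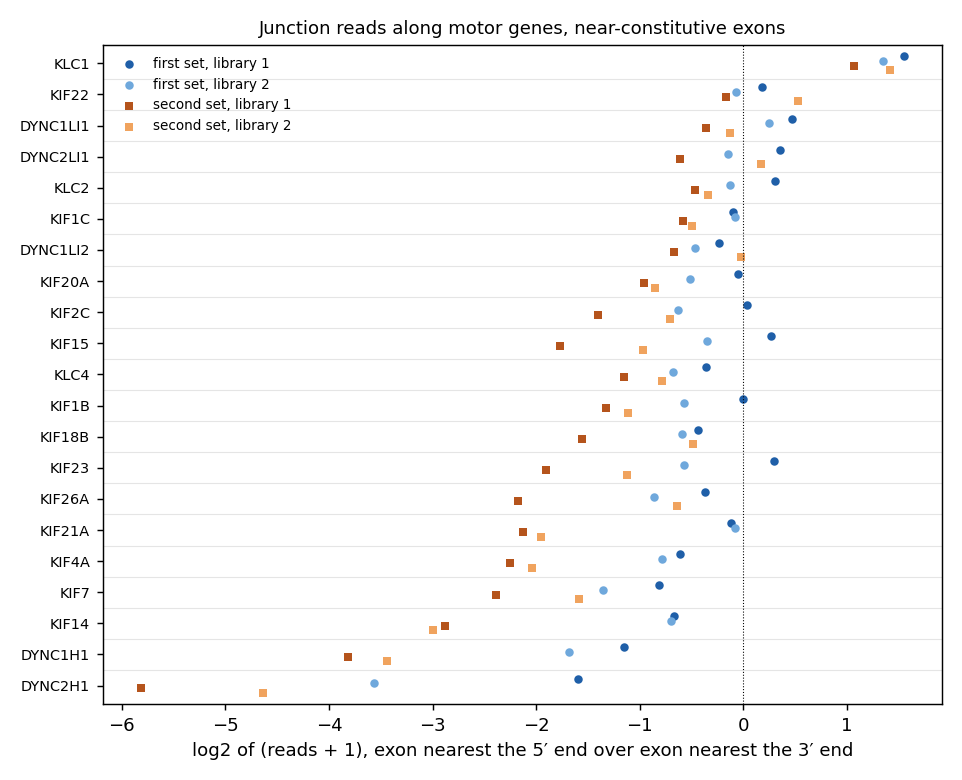
log2 ratio of junction reads (plus 1) on the near-constitutive exon nearest the 5′ end to those on the one nearest the 3′ end (x axis) for 21 motor genes (rows), 1 mark per library. Circles are the first set and squares the second; both squares lie left of both circles in 15 genes, and the lowest values are those of DYNC1H1 and DYNC2H1.

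The kinesin-1 heavy chain genes KIF5A and KIF5B showed no alternative event. KIF5B, the widely made heavy chain, had its deepest event at inclusion levels of 0.996 and 1 in the first set, against 1 and 1 in the second, for the 151-nt exon at chr10:32304437-32304587 (hg19, minus strand). The only tested event of KIF5A, a heavy chain best known from neurons, had a mean inclusion of 0.993. The light chain genes KLC2 and KLC4 had no alternative event over 6 and 8 tested events. In KLC2, the 231-nt coding exon 3 was at 0.972 and 0.983 in the first set, against 0.986 and 1 in the second, a difference of -0.0158 (FDR 0.214 in the authors' deposited table) with sets that do not overlap.

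KLC1 held more alternative events than any other motor gene, all at its 3′ end. KLC1 (ENSG00000126214.16, chromosome 14, plus strand) encodes a light chain whose alternatively spliced carboxy-terminal exons are known to give forms that differ in cargo binding. It held 20 tested events over 6 exons, of which 12 events over 4 exons were alternative: exons of 51, 131, 67 and 82 nt. Because one splice choice enters several events, these 12 are not independent of each other.

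The 131-nt coding exon (chr14:104153418-104153548, hg19) was measured between the longer upstream exon and the last exon by 225, 198, 242 and 200 reads. Its inclusion level was 0.668 and 0.612 in the first set, against 0.487 and 0.525 in the second. Both libraries of the first set lay above both of the second. The means were 0.640 and 0.506, a difference of 0.134, with an FDR given as 0.0351 by the authors' deposited table. The unadjusted quasi-binomial p was 0.050 and the adjusted p over all tested events 0.854. Leaving out each library in turn gave differences of 0.106 to 0.163.

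After the shorter upstream exon, the same exon was ordered the other way. Between that exon and the last exon it was included at 0.565 and 0.594 in the first set, against 0.691 and 0.621 in the second. The sets again did not overlap, but the difference of -0.0760 did not pass the authors' test (FDR 0.706 in the authors' deposited table). Whether the 2 upstream contexts differ in their response was not tested. Before the 82-nt exon, with the shorter upstream exon, the 131-nt exon was skipped in 1 library only. Inclusion there was 1, 1 and 1, and 0.639 in library 2 of the second set, from 40 inclusion and 12 skipping reads (interval 0.485 to 0.770). This event was called (difference 0.180, FDR 0.0102 in the authors' deposited table), and the difference is 0 without library 2 of the second set and 0.361 without library 1 of that set. Without correction for the form lengths it was 0.115.

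The exons around it moved less evenly. Between the 131-nt exon and the last exon, the 67-nt coding exon (chr14:104158696-104158762) was included at 0.638 and 0.430 in the first set, against 0.394 and 0.583 in the second, so that each set held a high and a low library. Between an upstream exon and the last exon, without the 131-nt exon, it was included at 0.0285 to 0.0999 after the longer upstream exon and 0.0486 to 0.224 after the shorter one. Before the 82-nt exon it was nearly always present: after the shorter upstream exon its level was 1, 1 and 1, and 0.821 in library 2 of the second set. That difference of 0.0893 carried an FDR of 0.00366 per the authors' deposited table and was smaller than the call rule asks. Before the 82-nt exon and after the 131-nt exon it was 0.978 to 1. The 131-nt and 67-nt exons together measure 198 nt, which is divisible by 3, whereas neither length is. The 82-nt exon after the 67-nt exon stood at 0.956 and 0.864 in the first set, against 0.730 and 0.90 in the second (FDR 0.210 in the authors' deposited table).

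The 51-nt, partly coding exon (chr14:104151323-104151373) varied with its neighbours more than with the set. Before the exon that starts at position 104151975 it was included at 0.773 to 1, and before the 131-nt exon or the last exon at 0.0962 to 0.340. Between the longer upstream exon and the 131-nt exon it was lower in the first set, at 0.0962 and 0.155 against 0.175 and 0.210 (difference -0.0671, FDR 0.154 in the authors' deposited table). Between the longer upstream exon and the exon at 104151975 it was at 0.90 and 0.961 in the first set, against 0.979 and 1 in the second. That difference of -0.0587 carried an FDR of 0.00768 per the authors' deposited table but was smaller than the call rule asks. The largest difference of this exon, -0.113, lay between the shorter upstream exon and the last exon (FDR 0.572 in the authors' deposited table). Between the longer upstream exon and the last exon it was 0.0338. After the shorter upstream exon it was 0.00908 before the 131-nt exon and -0.00230 before the exon at 104151975.

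**Figure D3:**
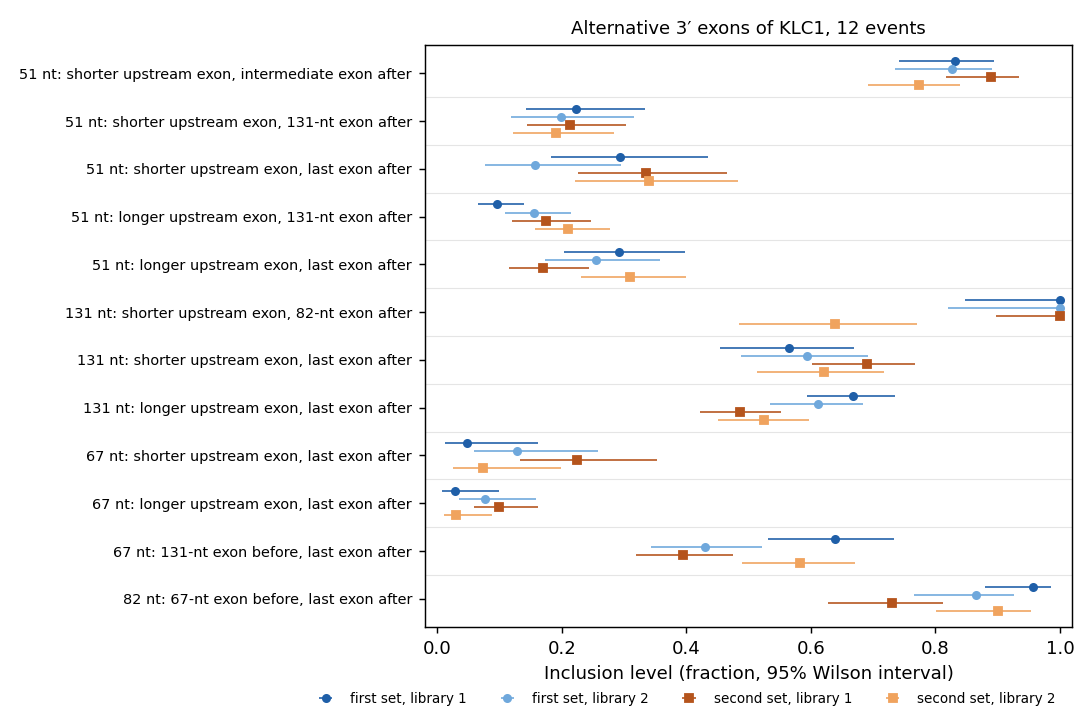
The 12 alternative events of KLC1, 1 row per skipped exon and pair of neighbouring exons, with the inclusion level (x axis, fraction) of each library and its 95% Wilson interval. Circles are the first set and squares the second; the 131-nt exon lies higher in the first set after the longer upstream exon (0.668 and 0.612) and lower after the shorter one (0.565 and 0.594).

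In the kinesin-2 family, which powers transport within cilia and along axons, KIF17 held a called event that rests on 1 library. Its 557-nt coding exon (chr1:21013881-21014437, minus strand, exon 8 of 15) was at 0.758 in library 1 of the first set, from 50 inclusion and 8 skipping reads. The other 3 libraries were at 1 with no skipping read, and the set means of 0.879 and 1 differed by -0.121 (FDR 0.0142 in the authors' deposited table). The difference is 0 without that library, -0.242 without library 2 of the first set, and -0.0690 without correction for the form lengths.

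KIF3A, the shared motor subunit of heterotrimeric kinesin-2, has an alternative exon of only 9 nt (chr5:132042143-132042151, minus strand). Its inclusion was 0.292 and 0.417 in the first set, against 0.465 and 0.632 in the second. The sets did not overlap and the difference was -0.194, between -0.277 and -0.111 when each library was left out. It missed the call rule (p 0.0306, FDR 0.238 in the authors' deposited table), with 31 to 79 reads per library. Release 29 holds 1 named pseudogene of KIF3A, and likewise 1 each of KIF18B and DYNC1I2, described below.

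Kinesin-3 motors carry vesicles, and their genes held 11 alternative events in 34. KIF13A (ENSG00000137177.14), which transports endosomal cargo, gave the called event in which the first set lay highest above the second. Its 39-nt coding exon (chr6:17790103-17790141, minus strand, exon 27 of 40) had an inclusion level of 0.320 and 0.216 in the first set, from 19 inclusion and 32 skipping reads and from 8 and 23. In the second set it was 0.0734 and 0.0658, from 1 and 10 reads and from 4 and 45. The intervals of library 1 of the first set (0.212 to 0.452) and library 2 of the second (0.0257 to 0.158) did not touch, while that of library 1 of the second set (0.0129 to 0.324) reached over the first set's values. The means were 0.268 and 0.0696 and the difference 0.198 (FDR 0.00679 in the authors' deposited table); it was 0.146 to 0.250 with each library left out. The quasi-binomial unadjusted p was 0.0498 and the adjusted p 0.854. The other alternative exons of KIF13A showed no such order: the 105-nt exon was at 0.383 and 0.283 against 0.401 and 0.328, and the 147-nt exon at 0.902 and 0.831 against 0.681 and 0.941.

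KIF1A, a carrier of synaptic vesicle precursors best known from neurons, was spliced in 293T cells mostly without its 27-nt and 276-nt exons. The 27-nt exon (chr2:241674136-241674162, minus strand) was included at 0.171 and 0.182 in the first set, against 0.155 and 0.0942 in the second. The 276-nt exon (chr2:241696736-241697011) stood at 0.0920 and 0.0935 in the first set, against 0.0345 and 0.0376 in the second. Its sets did not overlap and its difference was 0.0567 (p 0.00784, FDR 0.0935 in the authors' deposited table). KIF1C, a Golgi and vesicle motor, had the deepest kinesin-3 event at 0.993 to 1 for its 146-nt exon, with a mean of 1571 reads. A non-coding 34-nt exon near its 5′ end was at 0.123 and 0.0957 in the first set, against 0.0550 and 0.0914 in the second (difference 0.0362, p 0.0248, FDR 0.206 in the authors' deposited table). KIF14, a cytokinesis motor, had its 159-nt exon at 1, 0.933, 0.973 and 0.881, overlapping between the sets. KIF16B, an endosome motor, had 3 alternative exons with overlapping sets, such as its 153-nt exon at 0.875 and 0.833 against 0.875 and 0.862.

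Among kinesin-4 genes, KIF4A, which acts on chromosomes and the central spindle, and KIF7, a regulator of Hedgehog signalling in cilia, had no alternative event. KIF21A, a motor that restrains microtubule growth, had 3 alternative exons. Its 129-nt coding exon (chr12:39711875-39712003, minus strand) was at 0.315 and 0.402 in the first set, against 0.434 and 0.525 in the second, without overlap. The difference of -0.121 did not pass (FDR 0.429 in the authors' deposited table). Spliced to the 39-nt exon instead, the same exon was at 0.889 and 1 against 1 and 0.728, a difference of 0.0806 in the other direction with overlapping sets (FDR 1 in the authors' deposited table). Its 21-nt exon (chr12:39724044-39724064) varied within sets more than between them, at 0.325 and 0.173 against 0.323 and 0.0987.

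Alternative exons of KIF23 varied little between libraries. KIF23, the kinesin-6 motor of the central spindle that bundles microtubules in cytokinesis, has a 312-nt coding exon (chr15:69733107-69733418, plus strand, exon 18 of 23) whose inclusion separates its long form, CHO1, from its short form, MKLP1. That exon was included at 0.412 and 0.404 in the first set, against 0.406 and 0.384 in the second, with 384 to 480 reads behind each value. The 42-nt exon of the same gene was at 0.154, 0.154, 0.149 and 0.142, and the 79-nt exon at 0.918 and 0.948 against 0.893 and 0.944. The 137-nt exon of KIF23 (chr15:69714331-69714467) was at 0.988, 0.987 and 1, and at 0.911 in library 2 of the second set, a difference of 0.0318 (FDR 0.0361 in the authors' deposited table). KIF11, the kinesin-5 that pushes spindle poles apart, KIF20A and KIF20B of kinesin-6, KIF18A and KIF18B of kinesin-8 and KIF22 of kinesin-10 had no alternative event. In KIF18B, which shortens astral microtubules, no event passed the call rule. Its 105-nt exon spliced to the 111-nt exon next to it was at 0.934 and 0.941 in the first set, against 0.985 and 0.964 in the second (difference -0.0371, FDR 0.0977 in the authors' deposited table). Without the 111-nt exon, the same 105-nt exon differed by -0.0581 (p 0.00452, FDR 0.0640 in the authors' deposited table). The 111-nt exon differed by -0.0369 without the 105-nt exon (FDR 0.183 in the authors' deposited table), and by -0.00412 next to it.

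KIF15, the kinesin-12 that supports the bipolar spindle, had its 198-nt coding exon (chr3:44852338-44852535, plus strand, exon 17 of 35) at 1 and 0.873 in the first set, against 0.829 and 0.800 in the second. The difference of 0.122 did not pass the rule (p 0.00544, FDR 0.0728 in the authors' deposited table), and library 1 of the second set had 32 reads there. It was 0.0584 without library 1 of the first set and 0.186 without library 2 of it. Its 102-nt exon overlapped between sets, at 0.943 and 0.976 against 0.961 and 0.913. KIF26A, of kinesin-11, had its 447-nt exon at 0.898 and 0.942 against 1 and 0.692, so that the second set held both the highest and the lowest value.

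KIF24 (ENSG00000186638.11), a kinesin-13 known to act at centrioles and to restrain cilium assembly, gave the called event with the largest difference. Its 98-nt coding exon (chr9:34297015-34297112, minus strand, exon 3 of 12) was at 0.872 and 0.637 in the first set, from 34 inclusion and 3 skipping reads and from 32 and 11. In the second set both libraries were at 1, from 16 and 40 inclusion reads without a skipping read, with intervals starting at 0.715 and 0.863. The means were 0.755 and 1, and the difference was -0.245 (FDR 0.000675 in the authors' deposited table). It was -0.363 without library 1 of the first set and -0.128 without library 2 of it. The junction that skips this exon is not among the release 29 transcripts matched here. The quasi-binomial unadjusted p was 0.0307, and the adjusted p was 0.854. KIF2C, the kinesin-13 of the centromere that corrects faulty attachments, was measured far more deeply at its 123-nt coding exon (chr1:45218804-45218926). Inclusion was 0.697 and 0.807 in the first set, against 0.764 and 0.873 in the second, and the sets overlapped.

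In kinesin-14, KIFC1, which focuses spindle poles, had no alternative event, and KIFC3, which acts at cell junctions and in the Golgi, had 4. The 203-nt partly coding exon of KIFC3 (ENSG00000140859.11, chr16:57819376-57819578, minus strand) was included at 0.20 and 0.0400 in the first set, from 8 inclusion and 16 skipping reads and from 2 and 24. No inclusion read was found in the second set among 21 and 28 reads, which allows levels up to 0.0838 and 0.0642. The difference was 0.120 (FDR 0.00575 in the authors' deposited table). It fell to 0.0400 without library 1 of the first set, and was 0.20 without library 2 of that set and 0.205 without correction for the form lengths. KIFC2 had a 115-nt coding exon at 0.938 and 0.90 in the first set, against 0.964 and 1 in the second (difference -0.0635, FDR 0.0736 in the authors' deposited table).

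KIF9, a kinesin-9 of motile cilia, had alternative exons near its 5′ end. The 244-nt exon (chr3:47322442-47322685, minus strand) was at 0.114 and 0.130 in the first set, against 0.0680 and 0.0314 in the second in its deeper event (difference 0.0722, FDR 0.0464 in the authors' deposited table). In a shallower event next to the 246-nt exon, the same exon was at 1 and 0.321 against 0.515 and 0.104. That difference of 0.351 was the largest of any tested motor event that was not called, and library 1 of the first set held 9 reads there. It was 0.0109 without that library.

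**Figure D4:**
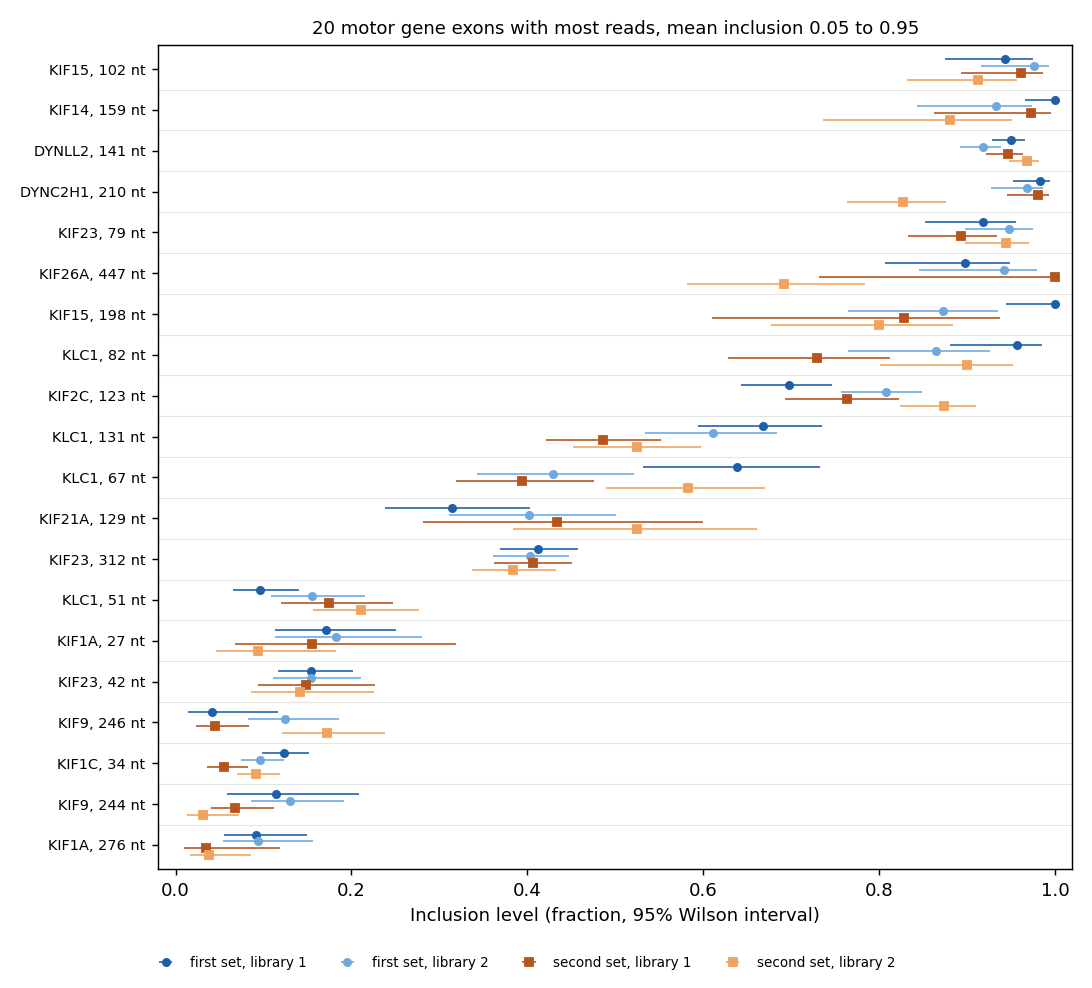
Inclusion level (x axis, fraction) with 95% Wilson intervals in each library for the 20 motor gene exons with most reads among alternative exons, ordered by mean level. Circles are the first set and squares the second; the 312-nt and 42-nt exons of KIF23 lie together in all libraries, while library 2 of the second set stands apart at DYNC2H1 (0.827) and KIF26A (0.692).

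Most dynein exons were spliced in nearly always. Of 52 tested dynein events, 45 had a mean inclusion above 0.9 and 32 above 0.99. The heavy chain DYNC1H1, which holds the motor ring, had 9 tested events with mean levels of 0.997 to 0.999, and none whose sets were apart. Its deepest, the 135-nt exon 61 of 78 (chr14:102505749-102505883), was at 1, 1, 0.998 and 1. The intermediate chain DYNC1I2, which binds dynactin, was at 0.995 to 1 for its deepest exon and included a 60-nt coding exon at 0.0178 and 0.00557 in the first set, against 0.0128 and 0.0540 in the second (FDR 0.0462 in the authors' deposited table).

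Light intermediate chains bind cargo adaptors. DYNC1LI1 and DYNC1LI2 together held 14 tested events over 12 exons, 0 of them alternative. Sets did not overlap in 7 of these 14 events, a larger share than the 22.8% of all tested events, and the median absolute difference was only 0.00804. Some of the 14 events share an exon, so they are not independent of each other. The largest difference among the 14 events was in DYNC1LI2, whose 117-nt coding exon (chr16:66776341-66776457, minus strand) was at 0.970 and 0.893 in the first set, against 1 and 1 in the second. The difference of -0.0686 carried an FDR of 0.0459 per the authors' deposited table, with 39 and 69 reads in the second set. It was -0.107 without library 1 of the first set and -0.0300 without library 2 of it.

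Among the light chains, DYNLL1, a hub protein found in dynein and in many other complexes, gave the 1 called dynein event. Its 123-nt exon (ENSG00000088986.6, chr12:120931606-120931728, plus strand) matched no exon of release 29 by lengths. It was included at 0.0987 and 0.141 in the first set, from 5 inclusion and 25 skipping reads and from 9 and 30, and at 0.0199 and 0 in the second, from 1 and 27 and from 0 and 27. A count of 0 there allows a level up to 0.0723. The difference was 0.110 (FDR 0.00296 in the authors' deposited table), 0.0888 without library 2 of the first set, and 0.181 without correction for the form lengths. The event takes up few of the gene's reads: the 138-nt exon of DYNLL1 had a mean of 7937 reads and was included at 1 in each library after rounding. Release 29 holds 7 named pseudogenes of DYNLL1, and how reads shared with them were counted is not given in the sources used here. DYNLL2 had its 141-nt exon at 0.95 and 0.918 against 0.946 and 0.969. DYNLT1, of the Tctex family, had its 42-nt coding exon at 0.983 and 0.972 in the first set, against 0.969 and 0.95 in the second, a difference of 0.0182 over 1125 to 1701 reads per library (FDR 0.0425 in the authors' deposited table).

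Dynein 2 drives return transport in cilia through its heavy chain DYNC2H1. Near the 3′ end of that gene, 2 exons were skipped more in library 2 of the second set. The 210-nt exon 85 of 90 (chr11:103270391-103270600, plus strand) was at 0.983, 0.968 and 0.981, and at 0.827 in that library. The 117-nt exon before it (chr11:103228971-103229087) was at 1, 0.993 and 1, and at 0.849 in that library. Both had an FDR under 0.05 in the authors' deposited table (0.0111 and 0.00121) with differences of 0.0713 and 0.0723, and the first is -0.00545 without that library.

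Sets did not overlap in 52 of the 239 motor events (21.8%, against 22.8% of all tested events), and in 18 of the 52 alternative ones (34.6%, against 33.4% of all alternative events). That held for 38 of the 187 kinesin events (20.3%) and 14 of the 52 dynein events (26.9%). Together with a p under 0.05 in the authors' deposited table, non-overlap held for 19 motor events (7.95%, background 9.46%). An FDR under 0.05 of any size was given to 16 motor events (6.69%, background 5.72%), 9 of which differed by less than 0.1.

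Most of the large differences were found in events with few reads, and whether depth gave rise to them was not tested. A difference of at least 0.1 was seen in 13 motor events (5.44%, against 7.13% of all tested events). Of these, 12 had a mean under 100 reads, while the median of the mean reads over all 239 motor events was 161.5. Of the 7 called, 5 had a mean under 50 reads, as had 40 of all 239 motor events (16.7%). The values nearest the read minimum were the 134-nt exon of KIF13B and the 77-nt exon of KIF15, both at a mean of 20.5 reads, and, just below it, an event of KIF22 at 18 and the 222-nt exon of KIFC3 at 17.75.

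**Figure D5:**
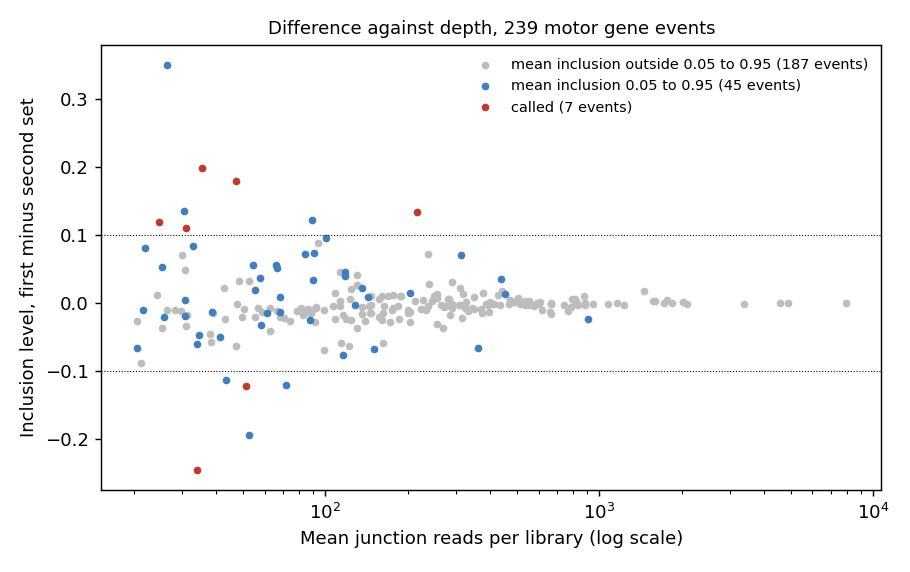
Difference in inclusion level (first minus second set, y axis) against mean junction reads per library (x axis, log scale) for the 239 tested motor events. Called events are red, other alternative events blue and the remaining events grey, and dotted lines mark differences of 0.1 and -0.1; 12 of the 13 events beyond the lines have a mean under 100 reads.

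The alternative motor exons were more often a multiple of 3 in length than alternative exons in general, within a wide interval. Skipping such a coding exon leaves the reading frame in place. It was found in 24 of 41 alternative motor exons (58.5%, Wilson interval 43.4 to 72.2%) and in 43.4% of 11203 alternative exons of all genes, a value at the edge of that interval. Among motor exons included above 0.95 the share was 43.9%, against 39.4% of all such exons. The median length was 123 nt, against 117 nt, and the median summed length of the flanking introns was 7536 nt, against 5556 nt. Of the 41, 28 were coding, 6 partly coding and 6 non-coding by release 29, and 1 was not matched. Exons of at most 27 nt were 3 of the 41, those of KIF3A, KIF21A and KIF1A shown above.

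Genes that work with the motors were counted from a list of 45 names, of which 40 had tested events. They held 244 events, of which 4 were called (1.64%, background 2.71%), 3 higher and 1 lower in the first set. Dynactin, the cofactor that joins dynein to its cargo, had 85 events in 12 genes and 0 called. Sets did not overlap in 19 of its events (22.4%, against 22.8% of all tested events). Dynein regulators and adaptors had 2 called in 81 (2.47%, background 2.71%), in HOOK2 and HOOK3. HOOK2, a dynein adaptor, had its 88-nt exon (chr19:12878630-12878717) at 0.710 and 0.790 in the first set, against 0.868 and 0.891 in the second, a difference of -0.129 (FDR 0.0493 in the authors' deposited table). HOOK3 had a 6-nt exon at 0.0846 and 0.167 against 0 and 0, from 18 and 21 reads in the second set (FDR 0.00542 in the authors' deposited table).

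Kinesin adaptors had 2 called in 78 (2.56%, background 2.71%), both higher in the first set. PLEKHM2, which links kinesin-1 to lysosomes, had its 60-nt exon (chr1:16047824-16047883) at 0.439 and 0.427 in the first set, against 0.345 and 0.280 in the second, from 146 to 274 reads. The difference was 0.120 (FDR 0.0310 in the authors' deposited table). SPAG9, a scaffold that binds kinesin light chains, had its 95-nt exon at 1, 1, 1 and 0.716, with all skipping in library 2 of the second set (FDR 0.00315 in the authors' deposited table). Over partner events, the absolute difference had a median of 0.00753, against 0.0125 over motor events and 0.0114 over all tested events.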

How the data were processed

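RNA-seq of 4 libraries (2 per group) was read from 1 comparison table in the layout of rMATS, per the file headers. Trimming with cutadapt, alignment with STAR and build hg19 come from the submitters' processing notes; versions, the rMATS settings and the annotation are not given in the sources used here. For each event the deposited table holds inclusion and skipping reads and inclusion levels per library. The authors' rMATS p-value, its FDR over all events and the change of inclusion level between sets, a score between -1 and 1, are also in the deposited table. Recomputed differences lay within 0.00137 of it.

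Events with a mean of at least 20 reads were tested, and exons were matched to GENCODE release 29 (GRCh38) by exon and intron lengths within the gene, without converting coordinates; the printed sequences come from its transcripts. Wilson intervals (95%) cover counting error only. A quasi-binomial model and limma 3.58.1 (R 4.3.3, pseudocount 0.5) were fitted to all 54503 events with Benjamini-Hochberg adjustment. The quasi-binomial dispersion followed a depth trend estimated from events with at least 8 reads of the rarer form, a setting chosen on simulated data, which departs from the plan. On simulated data with 200 events changed by 0.3, it found 164 under binomial noise (0.606% of calls false). It found 109 when every event was given the median scatter measured among libraries (6.84% of calls false). Events with larger scatter were thus not represented. The changes were increases only, in events of low to middle inclusion, so events near full inclusion were not tried. Since the setting was chosen on simulated data, these shares are no independent check of it. With limma 0 and 0 were found, so its count of 0 is no measure of change.

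Named events were the called ones, those with p under 0.05 and non-overlapping sets, the 20 deepest alternative exons, the deepest event per role, those next to the read minimum, and other alternative exons of the same genes. Some further alternative exons and DYNC2H1 events were named after their values were seen. Members and lists were chosen with earlier results of these data known.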

Additional observations from a re-analysis of the deposited data

How the results depend on the processing

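The count of 7 called motor events became 2 with a mean of at least 50 reads, 13 with a difference of at least 0.05, 1 with at least 0.2 and 4 with an FDR under 0.01. It was 0 by the quasi-binomial model, by limma with a pseudocount of 0.5 or 1, and by a quasi-binomial model without the depth trend, which was added after the data had been seen. The cause of these shifts was not tested, apart from the fewer events that a stricter rule admits. It moved less under lower read minimums (8 at 10 reads, 9 with none), with adjustment over tested events (7), with 1 event per exon (5) and for sets that do not overlap (5). Leaving out each library in turn, with the authors' FDR kept as deposited and the difference alone recomputed, kept 5 to 7: KIF17 and KIFC3 were lost without library 1 of the first set, DYNLL1 without library 2 of it, and the KLC1 event before the 82-nt exon without library 2 of the second set. The 4 partner events became 0 at a difference of at least 0.2 and 3 at 50 reads, and 2 to 4 with each library left out. HOOK2 was lost without library 1 of the first set, HOOK3 without library 2 of it, and SPAG9 and PLEKHM2 without library 2 of the second set. Non-overlapping motor events numbered 18 among alternative events, 43 at 50 reads and 42 with 1 event per exon. The share of alternative motor exons divisible by 3 was 60.9% at a mean inclusion of 0.1 to 0.9 and 70.4% at 50 reads. Pooling the reads of a set moved 0 of the 64 named events by more than the spread between libraries, and dropping the length correction moved 6. No paired analysis was possible because the table gives the libraries of a set without the replicate numbers of the labels. Depth limits the shallow events: the 51 reads of KIF13A in library 1 of the first set give an interval of 0.212 to 0.452.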
